A study of Mus musculus with 12 samples.

Results

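Genes of the mitochondrial respiratory chain and ATP synthase were followed, complex by complex, in the islets of NOD and NOD.B10 mice. Members were taken by symbol: all genes starting with Nduf, Uqcr, Cox4 to Cox8 or Atp5, together with Sdha to Sdhd, Cyc1 and Cycs. The annotation held 98 such protein-coding genes, the array had a named probe for 90 of its 17016 named genes, and 69 of these were among the 3920 genes bright enough to be tested. A gene was tested when its islet signal was marked well above background by the scanner software on at least 4 of 12 arrays.

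The NOD mouse develops autoimmune diabetes after leukocytes enter its islets, and the series' title names NOD.B10 as the healthy control strain. All mice were 12-week-old females, with 6 of each strain. Islets were cut by laser from stained frozen pancreas sections, sections of at least 40 islets were pooled per sample, and the RNA was amplified, labelled with Cy5 and hybridised to 1 two-colour Agilent array per mouse together with a common Cy3-labelled mouse universal reference RNA. A laser-cut islet holds alpha, beta and delta cells, vessels, stroma and any infiltrating leukocytes, and fewer cells of a type cannot be told apart from less RNA per cell.

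The respiratory chain sits in the inner mitochondrial membrane. Complexes I and II pass electrons from NADH and succinate to ubiquinone, complex III hands them to cytochrome c, and complex IV passes them to oxygen. The proton gradient that complexes I, III and IV build drives ATP synthase, and in beta cells the ATP made in this way closes ATP-sensitive potassium channels and couples glucose to insulin release.

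Strain differences are given as log2 of NOD minus NOD.B10 on 2 scales. The loess ratio is log2 of Cy5 over Cy3 after background correction and an intensity-dependent adjustment within each array, and 3920 genes were tested on it. The net ratio is log2 of Cy5 over Cy3 after subtraction of local background only, set against each array's median, and it was tested for the 835 genes whose probe was well above background in both channels on all 12 arrays. Errors are standard errors (SE) of the limma fit, adjusted p is limma's p after Benjamini-Hochberg adjustment over all genes of that fit, and a gene counts as higher or lower at an adjusted p below 0.05.

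The islet channel was brighter on every NOD array than on every NOD.B10 array. Cy5 was well above background on 10.7 to 17.3% of spots in NOD and on 3.96 to 7.88% in NOD.B10, while the Cy3 ranges, 46.7 to 51.9% and 47.8 to 54.4%, overlapped. Ins1, Ins2, Gcg and Sst, the hormone genes of beta, alpha and delta cells, were well above background on all 12 arrays. Of all tested genes 18.8% were higher and 18.1% lower in NOD on the loess scale, and 15.7% and 34.6% on the net scale. Of the 3920 genes on the loess scale 2361 were tested only through NOD, with fewer than 4 NOD.B10 arrays well above background. Of the myeloid and pan-leukocyte markers, 9 of 10 tested were higher in NOD on the loess scale. Their summed net Cy5 was 1608 to 11146 scanner units in NOD and 69.2 to 188.5 in NOD.B10. No NOD.B10 array had Ptprc, the gene of the leukocyte marker CD45, well above background. The same held for Coro1a, Laptm5 and Itgax, so these genes were tested only through NOD. All 6 T and B cell markers tested were called higher in NOD on the loess scale. None of them was well above background on any NOD.B10 array, so all were tested only through NOD. Of the beta cell markers 3 of 7 were lower on the loess scale and 5 of 5 on the net scale. Acinar cell markers were lower in 6 of 8 on the loess scale (median -2.55) and in 4 of 6 on the net scale (median -2.35), with a summed net Cy5 of 295 to 3615 in NOD and 219 to 10457 in NOD.B10. Both endothelial markers and both other endocrine markers on the net scale were lower, and on the loess scale 0 of 3 and 1 of 4 were. Another endocrine marker, Hhex, was higher on the loess scale (0.52, adjusted p = 0.0446), with 3 NOD.B10 arrays well above background. Of 7 mesenchymal markers 1 was higher and 1 lower on the loess scale, and 1 of 4 was higher on the net scale. The 1 adipocyte marker tested, Fabp4, was lower on the loess scale (-1.03) and not called on the net scale (-0.27). The part of brightness and cell composition in the differences below was not tested, apart from the fits described with them.

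On the loess scale 34 of the 69 respiratory chain genes were lower in NOD and 1, Atp5g2, was higher, against 18.1% of all tested genes lower and 18.8% higher. Their median difference was -0.43, beside -0.0056 over all genes, and 61 of the 69 differences were negative. On the net scale 6 of 42 genes were lower and 1 higher, against 34.6% and 15.7% of all genes, and the members' median of -0.16 lay above the all-gene median of -0.33. Relative to all genes, the direction of the family therefore depended on the scale, and the 2 scales cover unlike sets of genes. The members' own net differences were still negative in 29 of 42. Of the 18 loess-lower members on the net scale, 15 had a negative net difference. On both of these scales Ndufc1, Ndufs5, Ndufb3, Ndufa7, Uqcr11 and Cox6a2 were lower and Atp5g2 was higher. All 6 genes lower on the net scale were among the 34. Relative to the all-gene net median these 7 differences were -0.55 for Ndufc1, -0.46 for Ndufs5, -0.22 for Ndufb3, -0.22 for Ndufa7, -0.33 for Uqcr11, -0.84 for Cox6a2 and 1.11 for Atp5g2. Median centring, described next, turned 5 of the 6 lower genes to higher. After the shift of the all-gene median was taken off, their differences were positive: Ndufc1 (0.46), Ndufs5 (0.20), Ndufb3 (0.26), Ndufa7 (0.40) and Uqcr11 (0.30). It ended the call of Cox6a2 and left Atp5g2 higher (1.30), while the scanner's processed ratio turned Atp5g2 (-0.17).

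Other scalings moved the family further. With each array's background-corrected ratios centred on their median in place of loess, 59 of 69 members were higher in NOD and 0 lower, with an all-gene median of 0.44, and the members' median lay 0.46 above it. Of the 34 members lower on the loess scale, 26 were then above the all-gene median and called higher, so each loess difference described as lower below holds for that scale. With the scanner's own processed ratio 12 members were lower and 0 higher. With Cy5 alone after quantile normalisation 4 were lower and 4 higher. Before any scaling, net Cy5 was higher in NOD for all 69 members (median log2 difference 1.89, range 0.36 to 3.13), as it was for 3780 of 3920 genes tested (median 1.97).

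**Figure D1:**
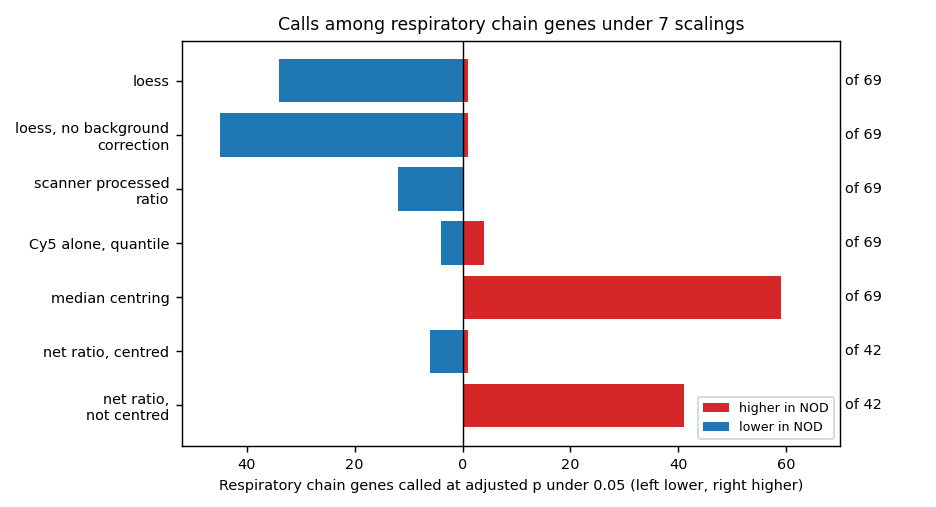
Number of respiratory chain genes called higher (red, right) or lower (blue, left) in NOD at an adjusted p below 0.05 under 7 ways of scaling the same 12 arrays; the number tested stands at the right. The bars point left with loess (34 lower, 1 higher of 69) and right with median centring (59 higher, 0 lower), so no direction of the family holds across scalings.

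The members share a feature that the rule did not use: a low ratio of islet signal to reference signal. Their islet signal itself was not low. Median net Cy5 was 94.9511 scanner units in NOD and 27.0532 in NOD.B10, against 26.7503 and 6.69878 over all genes tested. Their reference signal was also high, with a median net Cy3 of 11882.5 and 11342.7, against 1083.57 and 1036.34. Net Cy5 was below 1% of net Cy3 for 68 of the 69, with Cox7a2l at 1.66% as the exception, and the median was 0.471% against 1.36% over all genes tested. Among all genes with Cy5 below 1% of Cy3, 43.2% were lower in NOD on the loess scale, against 5.04% of the genes at or above 1%. On the net scale these shares were 33.9% and 34.9%. The median was 0.393% in the 34 members called lower on the loess scale and 0.583% in the 34 not called.

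**Figure D2:**
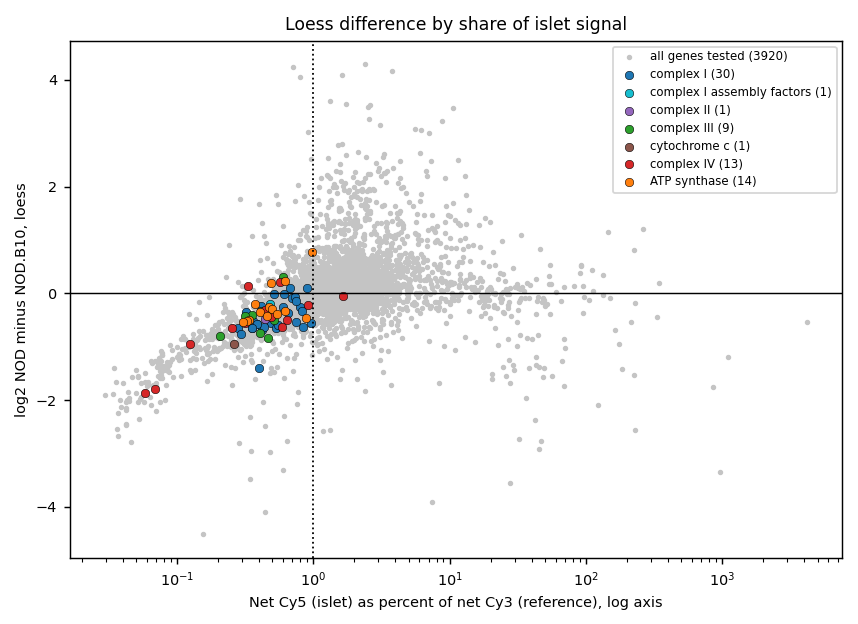
Loess log2 difference of each tested gene (vertical axis) against its net Cy5 as a percentage of net Cy3 (horizontal, log axis); grey points are all 3920 genes and coloured points the 69 respiratory chain genes by complex. All coloured points but Cox7a2l lie left of the dotted line at 1%, and the 3 farthest left are Cox8b, Cox6a2 and Cox7a1; on this loess scale most coloured points lie below 0, and with median centring 59 of the 69 genes were higher.

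Of the 69 members, 55 were well above background on at least 4 arrays of each strain, and 14 passed only through NOD. A gene that passed only through its brighter strain had to differ in raw signal. With genes kept only where 4 of 6 arrays of each strain were well above background, 23 of the 55 members were lower on the loess scale and 1 was higher, beside 315 lower and 250 higher of 1542 genes. No NOD.B10 array had Cox7a1, Cox7a2l, Cyc1, Ndufa3 or Ndufaf4 well above background, so their NOD.B10 levels are only upper bounds and no fitted difference is given for them, although the fit called Cox7a1 and Cyc1 lower and both are in the counts. For Ndufv1, Uqcrb and Cox4i1 only 1 NOD.B10 array was well above background, and their differences rest on values near background on the other arrays. Cox7a1 and Cox7a2l stood just inside the threshold with 4 arrays, and Atp5k just outside it with 3.

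Slide 1 carried NOD arrays only and slide 4 NOD.B10 arrays only, while slides 2 and 3 each carried 2 arrays of each strain. Slide 4 was also scanned on a different day from all other slides. The members' median relative to all genes was -0.31 on slide 2 and -0.31 on slide 3 on the loess scale, and 0.18 and 0.19 on the net scale, beside -0.42 and 0.17 over all arrays. Of the 34 members lower on the loess scale, 33 had a negative difference on both slides, Uqcrfs1 being the exception with 0.064 on slide 2. With slide as a fixed term 15 of the 34 kept an adjusted p below 0.05 on the loess scale and 2 of 6, Ndufc1 and Ndufa7, on the net scale. Without slide 4, 23 of the 34 kept it on the loess scale. With each array's brightness (its share of Cy5 spots above background) added to the fit as a covariate, 0 members were called in either direction on either scale, and 3 genes of all were called on the loess scale and 2 on the net scale. Brightness followed strain without overlap, so the covariate fit can hardly separate the 2 and a lost call there decides nothing.

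**Figure D3:**
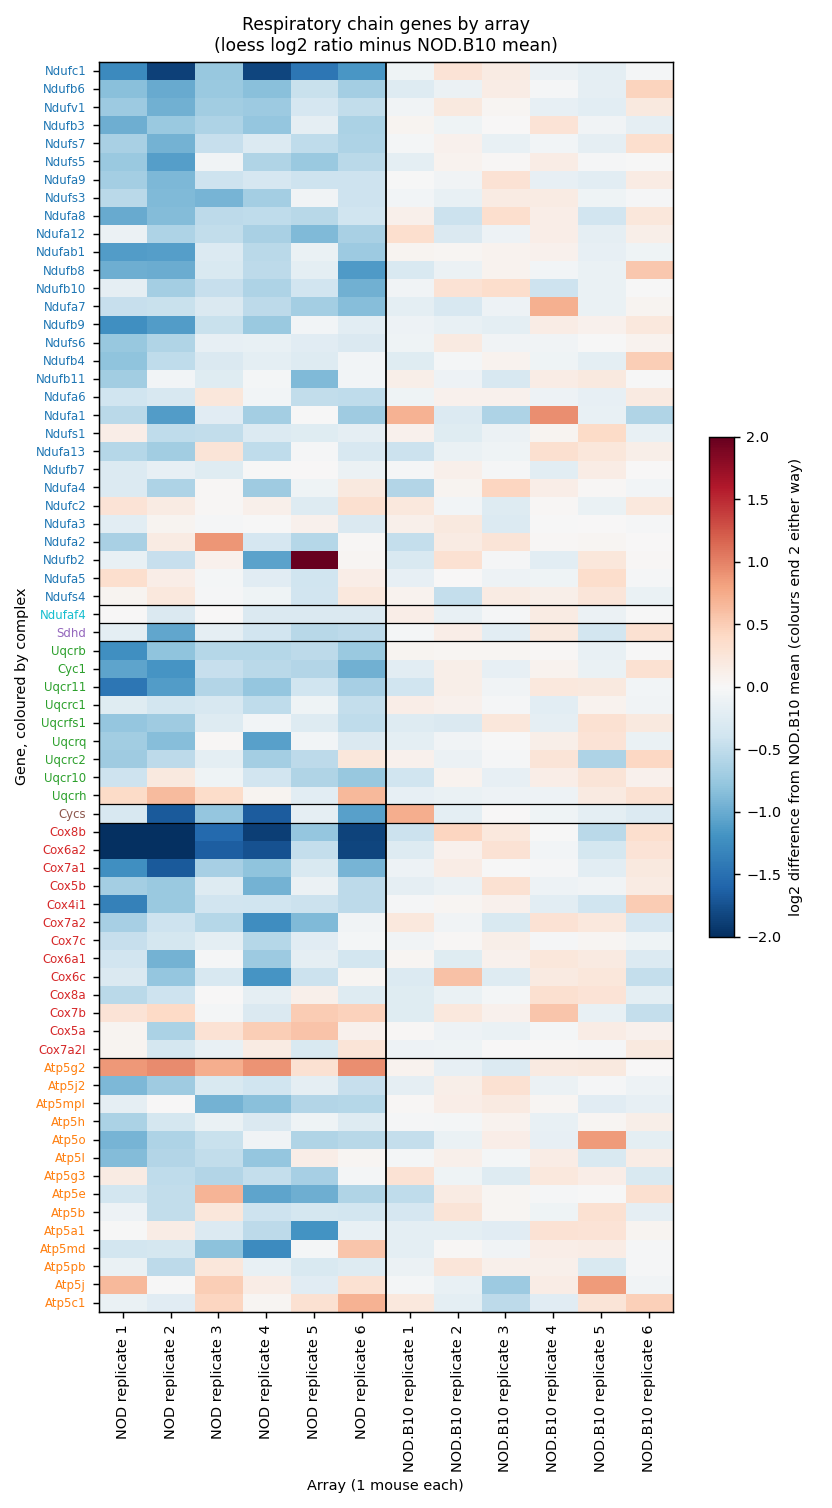
Loess log2 ratio of each of the 69 respiratory chain genes (rows, coloured and divided by complex) on each of 12 arrays (columns), minus the gene's NOD.B10 mean; blue is below that mean and red above it. On this loess scale 19 of the 30 complex I rows are blue on all 6 NOD arrays and the Atp5g2 row is red on all 6, whereas with median centring in place of loess 59 of the 69 genes were higher in NOD.

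Promoters were compared because nuclear genes of the respiratory chain are known to be read together through the factors NRF1 and GABP (an ETS factor also called NRF2). RefSeq entries of 300 bases around the start site (GRCm38.p6) covered 57 of the 69 members. All motifs and letters below were searched on both strands. The NRF1 motif (GCGCA, any base, GCGC) was in 15 of 57 (26.3%), against 11.8% of tested genes with an entry and 5.19% of all. It was in 7 of 28 members lower on the loess scale (25%) and in 8 of 29 others (27.6%). The ETS motif CCGGAAG was in 22.8% of members and 19.7% of tested genes. The letters CCAAT, also searched, were in 7 of 28 members lower on the loess scale (25%) and in 16 of 29 others (55.2%), against 44% of tested genes. TATAAA was in 3 of 28 (10.7%) and 4 of 29 (13.8%). These differences were not tested. A match describes letters only and is no evidence of binding.

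Promoters of 4 genes that the results turn on follow, 5′ to 3′ on the gene's strand, all of them on the minus strand, with NRF1 and ETS motifs in capitals. Atp5g2 (chr15:102670998-102671297), higher on the loess and net scales, and Ndufs5 (chr4:123718137-123718436), lower on both, each hold 1 NRF1 motif. Uqcr11 (chr10:80406772-80407071), lower on both, holds 1 ETS motif. Cox8b (chr7:140900397-140900696), the muscle isoform with the largest loess difference, holds neither.
Atp5g2: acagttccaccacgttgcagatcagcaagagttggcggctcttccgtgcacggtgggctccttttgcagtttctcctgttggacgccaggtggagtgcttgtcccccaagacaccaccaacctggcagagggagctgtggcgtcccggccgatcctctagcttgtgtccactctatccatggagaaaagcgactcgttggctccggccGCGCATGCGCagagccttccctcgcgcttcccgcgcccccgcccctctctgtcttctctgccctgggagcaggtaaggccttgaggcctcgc
Ndufs5: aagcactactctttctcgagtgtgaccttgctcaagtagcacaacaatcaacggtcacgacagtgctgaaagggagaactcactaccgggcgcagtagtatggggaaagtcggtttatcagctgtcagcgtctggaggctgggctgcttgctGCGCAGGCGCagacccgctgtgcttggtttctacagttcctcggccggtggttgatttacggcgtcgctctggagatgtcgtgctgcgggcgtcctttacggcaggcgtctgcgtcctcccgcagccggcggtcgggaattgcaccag
Uqcr11: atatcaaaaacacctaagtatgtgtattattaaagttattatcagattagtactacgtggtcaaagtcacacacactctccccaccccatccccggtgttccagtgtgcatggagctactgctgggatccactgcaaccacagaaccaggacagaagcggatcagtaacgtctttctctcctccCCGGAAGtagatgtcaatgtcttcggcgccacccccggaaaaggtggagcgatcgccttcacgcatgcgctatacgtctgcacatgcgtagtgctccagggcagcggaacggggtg
Cox8b: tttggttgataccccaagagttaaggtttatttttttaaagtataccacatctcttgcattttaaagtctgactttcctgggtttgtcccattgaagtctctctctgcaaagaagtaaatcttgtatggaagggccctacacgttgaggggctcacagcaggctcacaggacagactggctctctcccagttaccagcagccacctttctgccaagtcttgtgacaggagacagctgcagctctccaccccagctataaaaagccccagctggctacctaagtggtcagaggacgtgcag

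Complex I oxidises NADH and is the largest of the complexes. Of its 36 subunit genes on the array 30 were tested, and 16 were lower in NOD on the loess scale and 0 higher, with a median of -0.53. Of all genes tested 18.1% were lower. Among genes with Cy5 below 1% of Cy3, a class that held all 30, the share lower was 43.2%. Net ratios put 4 of 18 lower and 0 higher, against 34.6%, and the median lay 0.02 below that of all genes, or 0.34 above it with median centring. In 6 of the 30 all NOD loess ratios lay below all NOD.B10 ratios, against 7.42% of all genes tested. For net ratios this was so in 3 of the 18, Ndufc1, Ndufs5 and Ndufa7, against 9.58% of all genes.

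Ndufc1, a small accessory subunit of the membrane arm, was the member of complex I with the smallest p on both scales. Its loess ratio ran from -0.72 to 0.39 (median -0.21) in NOD and 0.96 to 1.43 (median 1.09) in NOD.B10. The strains did not overlap, and the difference was -1.39 ± 0.18 (SE, adjusted p = 0.000131), or 2.62-fold lower in NOD, but with median centring it was called higher, at 0.46 after the all-gene shift was taken off. Net ratios of Ndufc1, -2.61 to -2.02 (median -2.24) in NOD and -1.56 to -1.22 (median -1.41) in NOD.B10, did not overlap either, with a difference of -0.88 ± 0.18 (SE, adjusted p = 0.0011). A second probe for the gene, also well above background on all 12 arrays, differed by -0.86 on the loess scale. Within slides 2 and 3 the net difference was -0.85 and -0.89, and it was -0.87 with slide in the fit (adjusted p = 0.0147). Its unscaled net Cy5, in scanner units, ran from 92 to 374 (median 210.75) in NOD and 64 to 150 (median 104.75) in NOD.B10, with the higher median in NOD and overlapping ranges.

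Ndufs5, an accessory subunit on the intermembrane space side, had loess ratios from -0.65 to 0.38 (median -0.22) in NOD and 0.25 to 0.59 (median 0.45) in NOD.B10. The ranges overlapped through the highest NOD array, and the difference was -0.63 ± 0.14 (SE, adjusted p = 0.0043). Net ratios ran from -1.57 to -0.87 (median -1.19) in NOD and -0.81 to -0.12 (median -0.33) in NOD.B10 without overlap, with a difference of -0.80 ± 0.19 (SE, adjusted p = 0.00289). With slide in the fit its adjusted p was 0.0665 on the loess scale and 0.072 on the net scale.

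Ndufa7, an accessory subunit of the peripheral arm, had net ratios from -1.68 to -1.09 (median -1.15) in NOD and -1.02 to -0.030 (median -0.78) in NOD.B10. All NOD arrays lay below all NOD.B10 arrays, and the difference was -0.56 ± 0.21 (SE, adjusted p = 0.0358). On the loess scale it was -0.54 ± 0.16 (SE, adjusted p = 0.0201), with ratios from -0.43 to 0.14 (median -0.071) in NOD and 0.10 to 1.13 (median 0.31) in NOD.B10 that overlapped. The net call was lost in 5 of 12 fits that each left out 1 array, with an adjusted p of up to 0.0888.

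Ndufb3, an accessory subunit of the membrane arm, differed by -0.66 ± 0.13 (SE, adjusted p = 0.00207) on the loess scale, with ratios from -0.85 to -0.047 (median -0.56) in NOD and -0.054 to 0.41 (median 0.10) in NOD.B10 that overlapped. Its net ratios, from -2.01 to -1.03 (median -1.82) in NOD and -1.58 to -0.95 (median -1.09) in NOD.B10, overlapped, and the difference of -0.56 ± 0.21 (SE, adjusted p = 0.0348) was lost in 9 of the 12 fits that each left out 1 array. Within slide 3 the net difference was 0.021.

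Ndufb6, another membrane arm subunit, had loess ratios from -1.37 to -0.80 (median -1.14) in NOD and -0.61 to 0.084 (median -0.43) in NOD.B10. All NOD arrays lay below all NOD.B10 arrays, and the difference was -0.76 ± 0.13 (SE, adjusted p = 0.000951). Ndufv1, which binds FMN and takes electrons from NADH, had loess ratios from -1.27 to -0.64 (median -1.01) in NOD and -0.51 to -0.10 (median -0.32) in NOD.B10, again without overlap, and differed by -0.66 ± 0.12 (SE, adjusted p = 0.00126), with 1 NOD.B10 array well above background. Neither gene was bright enough for the net scale, and the net Cy5 of Ndufv1, in scanner units, was only 9 to 26.5 (median 18.25) in NOD and 1.5 to 12 (median 6) in NOD.B10.

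The other 10 subunits of complex I that were lower on the loess scale differed by between -0.37 (Ndufs6) and -0.69 (Ndufb8). They include Ndufs7 (-0.57) and Ndufs3 (-0.59), core subunits of the peripheral arm, and Ndufab1 (-0.65), the mitochondrial acyl carrier protein. The remaining ones are the accessory subunits Ndufa9 (-0.53), Ndufa8 (-0.64), Ndufa12 (-0.57), Ndufb10 (-0.55) and Ndufb9 (-0.63). The net differences of Ndufs3 (-0.47), Ndufa8 (-0.34), Ndufa12 (-0.31), Ndufb8 (-0.49), Ndufb10 (-0.37) and Ndufb9 (-0.43) did not pass, and the others were not on that scale. The call of Ndufs6 was lost in 4 of the 12 fits that each left out 1 array.

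For 14 subunits of complex I no difference passed on the loess scale. The loess difference was -0.55 for Ndufa1, -0.35 for Ndufb4, -0.33 for Ndufb11, -0.31 for Ndufa13, -0.26 for Ndufa6, -0.26 for the iron-sulfur core subunit Ndufs1, -0.24 for Ndufa4 and -0.14 for Ndufb7. They were closer to 0 for Ndufa2 (-0.084), Ndufa5 (-0.011) and Ndufs4 (-0.0042), and positive for Ndufc2 (0.11) and Ndufb2 (0.11). Ndufa3 was not well above background in NOD.B10. Ndufc2 is the partner of Ndufc1 in the membrane arm, and its net difference was 0.051 ± 0.19 (SE, adjusted p = 0.85). Ndufa4 is counted here by its symbol, although its protein is now placed in complex IV.

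Assembly factors of complex I were dim. Of 5 on the array only Ndufaf4 was tested, with loess ratios from -0.57 to -0.27 (median -0.57) in NOD and -0.42 to -0.10 (median -0.30) in NOD.B10, and it was not called. Its Cy5 signal cleared background on 6 NOD arrays and 0 NOD.B10 arrays.

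Complex II, which also serves in the citric acid cycle, was represented by Sdhd, a membrane anchor that helps bind ubiquinone. Its loess ratios ran from -1.28 to -0.43 (median -0.70) in NOD and -0.61 to 0.057 (median -0.19) in NOD.B10, and the overlapping ranges differed by -0.48 ± 0.16 (SE, adjusted p = 0.0317). That call was lost in 5 of the 12 fits without 1 array. The catalytic subunits Sdha and Sdhb and the anchor Sdhc were well above background in Cy5 on 0 arrays. Their reference signal was well above background on all 12 but dim. Median net Cy3 was 765, 335.25 and 247.5 scanner units, against 5630.5 for Sdhd.

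Complex III was the one complex whose 9 members were all tested. On the loess scale 5 were lower in NOD and 0 higher, with a median of -0.43, against 18.1% of all genes lower. Among genes with Cy5 below 1% of Cy3, a class that held all 9, the share lower was 43.2%. For 3 members the strains did not overlap on the loess scale, against 7.42% of all genes. Net ratios put 1 of 7 lower, against 34.6% of all genes, and the median lay 0.29 above that of all genes.

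Uqcr11, a small subunit of complex III, was lower on both scales. Its loess ratios, from -1.15 to -0.087 (median -0.41) in NOD and -0.086 to 0.51 (median 0.34) in NOD.B10, did not overlap but nearly met, and the difference was -0.83 ± 0.17 (SE, adjusted p = 0.0027). Its net ratios, from -2.55 to -1.43 (median -1.95) in NOD and -1.92 to -0.91 (median -1.23) in NOD.B10, overlapped and differed by -0.66 ± 0.22 (SE, adjusted p = 0.0223). The net adjusted p was 0.271 with slide as a fixed term and 0.102 without slide 4, and the call was lost without NOD replicate 1 or NOD.B10 replicate 2.

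Uqcrb, which lines the ubiquinone-binding region, had loess ratios from -1.48 to -0.77 (median -0.91) in NOD and -0.39 to -0.19 (median -0.21) in NOD.B10 and a difference of -0.74 ± 0.12 (SE, adjusted p = 0.000554), with 1 NOD.B10 array well above background. Cyc1, the cytochrome c1 that donates electrons to cytochrome c, had loess ratios from -1.66 to -0.94 (median -1.25) in NOD and -0.69 to -0.18 (median -0.51) in NOD.B10; with 0 NOD.B10 arrays well above background no difference is given. Neither gene's strains overlapped, but both were near background in NOD.B10, where net Cy5 reached at most 11.5 and 8.5 scanner units. Uqcrc1, a core protein, had loess ratios from -0.62 to -0.20 (median -0.46) in NOD and -0.33 to 0.024 (median -0.088) in NOD.B10 and a difference of -0.33 ± 0.10 (SE, adjusted p = 0.0215). Net Uqcrc1 ratios ran from -2.13 to -1.34 (median -1.79) in NOD and -2.49 to -1.44 (median -1.70) in NOD.B10, and the difference of 0.060 ± 0.22 (SE, adjusted p = 0.849) had the opposite sign. Uqcrfs1, the Rieske iron-sulfur protein, likewise differed by -0.43 ± 0.16 (SE, adjusted p = 0.0472) on the loess scale and by 0.012 ± 0.23 (SE, adjusted p = 0.978) on the net scale, and its loess call was lost in 7 of the 12 fits without 1 array.

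The other members of complex III did not pass. Uqcrq, a small ubiquinone-site subunit, had loess ratios from -0.15 to 0.97 (median 0.44) in NOD and 0.74 to 1.22 (median 0.90) in NOD.B10 and differed by -0.50 ± 0.19 (SE, adjusted p = 0.0522), with a net difference of -0.35 ± 0.21 (SE, adjusted p = 0.175) between net ratios from -2.14 to -1.22 (median -1.65) in NOD and -1.71 to -0.94 (median -1.40) in NOD.B10. Uqcr10, another small subunit, differed by -0.34 on the loess scale and by -0.078 on the net scale, with net ratios from -2.23 to -1.02 (median -1.73) in NOD and -2.18 to -1.37 (median -1.58) in NOD.B10. The core protein Uqcrc2 differed by -0.40 and -0.045. Uqcrh, the hinge protein beside cytochrome c1, had positive differences of 0.31 ± 0.16 (SE, adjusted p = 0.134) and 0.39 ± 0.19 (SE, adjusted p = 0.105), with net ratios from -1.33 to -0.68 (median -1.08) in NOD and -1.79 to -1.09 (median -1.42) in NOD.B10. A second Uqcrh probe differed by -0.045 on the loess scale.

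Cycs encodes cytochrome c, the soluble carrier between complexes III and IV. Its loess ratios ran from -1.86 to -0.36 (median -1.12) in NOD and -0.46 to 0.53 (median -0.33) in NOD.B10. The ranges overlapped at their edges, and the difference was -0.95 ± 0.27 (SE, adjusted p = 0.0156). Both further Cycs probes that passed had the same sign (-0.89 and -0.37).

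**Figure D4:**
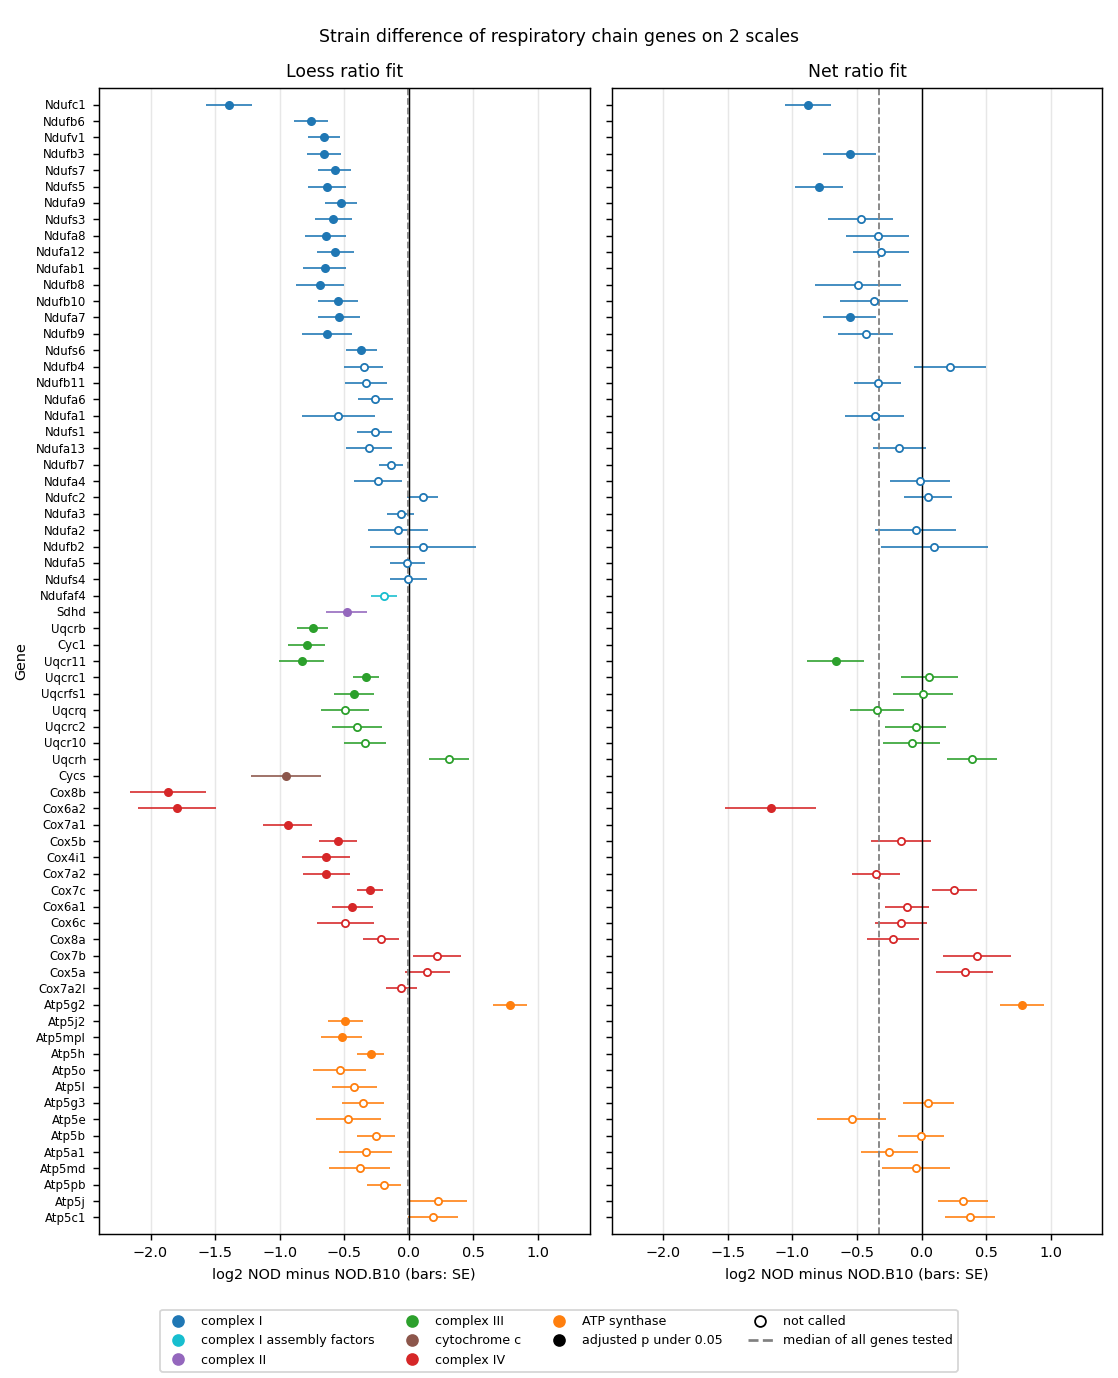
Fitted log2 difference of NOD minus NOD.B10 for the 69 respiratory chain genes on the loess scale (left) and for 42 of them on the net scale (right), with bars of 1 SE; filled points have an adjusted p below 0.05, and dashed lines are the medians of all genes tested. Points of Cox7a1, Cox7a2l, Cyc1, Ndufa3 and Ndufaf4 rest on NOD.B10 signals not well above background. Most points lie left of the dashed line on the loess scale. On the net scale most lie at or right of it, Atp5g2 among them. Those to its left include most complex I points, with Ndufc1, Ndufs5, Ndufb3 and Ndufa7, and also Uqcr11 and Cox6a2.

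Complex IV, cytochrome c oxidase, had 13 of 18 members tested. On the loess scale 8 were lower and 0 higher, against 18.1% of all genes lower, with a median of -0.49. Among genes with Cy5 below 1% of Cy3, a class that held 12 of the 13, the share lower was 43.2%. Net ratios put 1 of 9 lower, Cox6a2, against 34.6%, and the median lay 0.17 above that of all genes.

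The 2 largest loess differences of all members belonged to Cox8b and Cox6a2, striated-muscle isoforms of complex IV. Cox8b had loess ratios from -3.57 to -1.50 (median -2.60) in NOD and -1.27 to -0.30 (median -0.63) in NOD.B10, without overlap, and differed by -1.87 ± 0.29 (SE, adjusted p = 0.000469), or 3.64-fold lower. That call ended with Cy5 alone and with median centring, where the difference relative to all genes was -0.33 and -0.24, and the sign changed with the brightness covariate (0.0019). Cox6a2 had loess ratios from -3.55 to -1.14 (median -2.45) in NOD and -1.01 to -0.37 (median -0.65) in NOD.B10, also without overlap, and differed by -1.79 ± 0.30 (SE, adjusted p = 0.000707), or 3.47-fold lower. With Cy5 alone it was -0.34, and its call ended with median centring (-0.093) and the brightness covariate (0.17). That covariate followed strain without overlap, so the fit with it can hardly estimate a strain difference. Cox7a1, which heart, skeletal muscle and brown fat share, had loess ratios from -2.27 to -0.89 (median -1.46) in NOD and -0.79 to -0.40 (median -0.60) in NOD.B10, but it was well above background on 4 NOD and 0 NOD.B10 arrays, so its call has no measured NOD.B10 level behind it and no difference is given. These 3 probes also had the lowest islet share of signal among the members: net Cy5 was 0.0583%, 0.0685% and 0.124% of net Cy3.

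Net signals of Cox8b and Cox6a2 overlapped between the strains. Net Cy5 of Cox8b, in scanner units, ran from 8 to 26 (median 20.25) in NOD and 6 to 39.5 (median 10.75) in NOD.B10, and the NOD median was the higher before scaling. Net ratios of Cox6a2 ran from -5.73 to -3.41 (median -5.11) in NOD and -4.31 to -3.18 (median -3.94) in NOD.B10; they overlapped, and the difference was -1.17 ± 0.35 (SE, adjusted p = 0.0131). With slide as a fixed term that difference was -0.66 (adjusted p = 0.163), and without slide 4 its adjusted p was 0.0783. The myosin genes Myh2 and Myh1, the 2 muscle markers tested, were lower as well on the loess scale. Their differences were -1.74 ± 0.26 (SE, adjusted p = 0.000348) and -1.28 ± 0.24 (SE, adjusted p = 0.0014). Their Cy5 was 0.0699% and 0.0760% of Cy3, and 43.2% of all genes below 1% were lower on that scale. Neither was bright enough for the net scale. Myh1, with 3 NOD.B10 arrays well above background, passed only through NOD. The markers Ckm, Acta1, Tnnt3 and Myh6 were well above background on no array. Summed net Cy5 of the 6 muscle markers was 38 to 65 scanner units in NOD and reached at most 41.5 in NOD.B10. The part of muscle RNA in these values was not tested.

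The widely expressed counterparts were also measured. Cox7a2 differed by -0.64 ± 0.19 (SE, adjusted p = 0.0168) on the loess scale, with ratios from 0.25 to 1.42 (median 0.87) in NOD and 1.15 to 1.77 (median 1.56) in NOD.B10, and by -0.35 ± 0.19 (SE, adjusted p = 0.127) on the net scale, with ratios from -1.88 to -1.18 (median -1.45) in NOD and -1.41 to -0.87 (median -1.10) in NOD.B10. Cox6a1 differed by -0.44 ± 0.16 (SE, adjusted p = 0.0472) and -0.11 ± 0.17 (SE, adjusted p = 0.599), and its loess call was lost in 8 of the 12 fits without 1 array. Cox8a differed by -0.22 ± 0.14 (SE, adjusted p = 0.254) and -0.22 ± 0.20 (SE, adjusted p = 0.368).

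A difference between paralogs on the same array is free of any factor common to that array, although not of a factor that changes with brightness. These pairs were chosen after their values were seen and were not tested. On the net scale Cox6a2 minus Cox6a1 ran from -3.88 to -2.14 (median -3.50) in NOD and -2.82 to -1.67 (median -2.39) in NOD.B10, a difference of -1.06, and 1 NOD array lay among the NOD.B10 arrays. On the loess scale it ran from -3.66 to -2.03 (median -3.28) in NOD and -2.26 to -1.18 (median -1.76) in NOD.B10, a difference of -1.36. Loess ratios of Cox8b minus Cox8a ran from -3.62 to -2.07 (median -2.84) in NOD and -2.002 to -0.64 (median -1.16) in NOD.B10, a difference of -1.65, without overlap. Cox7a1 minus Cox7a2 ran from -3.34 to -1.50 (median -2.41) in NOD and -2.49 to -1.55 (median -2.12) in NOD.B10, a difference of -0.30, the strains overlapped widely, and on slide 2 the sign was opposite (0.47). NOD.B10 values of Cox7a1 are only bounds.

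**Figure D5:**
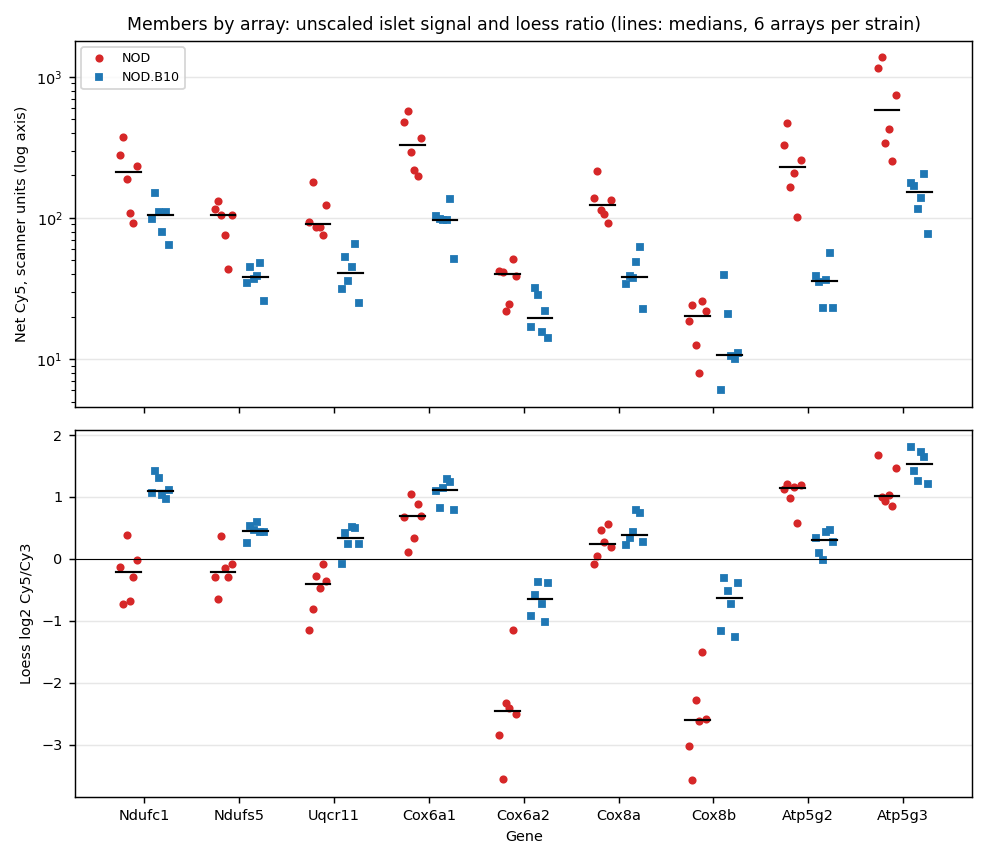
Net Cy5 in scanner units (top, log axis) and loess log2 ratio (bottom) of 9 respiratory chain genes on each of the 6 NOD (red circles) and 6 NOD.B10 arrays (blue squares), with black lines at the medians. Median net Cy5 is higher in NOD for each of the 9 genes, while on the loess scale the NOD median is higher for Atp5g2 and lower for the other genes; levels of different genes come from different probes and are not comparable.

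Among the other members of complex IV, Cox5b, a nuclear-encoded subunit near the catalytic core, had loess ratios from -1.09 to -0.26 (median -0.75) in NOD and -0.32 to 0.16 (median -0.23) in NOD.B10 and differed by -0.55 ± 0.15 (SE, adjusted p = 0.011). Its net ratios, from -2.73 to -1.78 (median -2.31) in NOD and -2.63 to -1.34 (median -2.17) in NOD.B10, overlapped, with a difference of -0.16 ± 0.24 (SE, adjusted p = 0.597). Cox4i1, the common isoform of a regulatory subunit, was lower on the loess scale, with a difference of -0.64 ± 0.19 (SE, adjusted p = 0.0162), and was well above background on 1 NOD.B10 array. Cox7c differed by -0.30 ± 0.10 (SE, adjusted p = 0.0306) on the loess scale and by 0.25 ± 0.17 (SE, adjusted p = 0.231) on the net scale, and the loess call was lost in 7 of the 12 fits without 1 array. Cox6c (-0.49) did not pass. Cox7a2l, a factor that joins complexes III and IV into supercomplexes, was not called, and its NOD.B10 signal did not clear background.

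Cox5a and Cox7b were the members of complex IV with positive differences. Cox7b had net ratios from -1.62 to -0.69 (median -1.06) in NOD and -2.45 to -1.01 (median -1.51) in NOD.B10 and differed by 0.43 ± 0.26 (SE, adjusted p = 0.181) on the net and 0.22 ± 0.19 (SE, adjusted p = 0.383) on the loess scale. Cox5a had net ratios from -2.33 to -1.53 (median -2.02) in NOD and -2.79 to -1.78 (median -2.39) in NOD.B10 and differed by 0.33 ± 0.22 (SE, adjusted p = 0.222) and 0.14 ± 0.17 (SE, adjusted p = 0.549). Neither passed.

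ATP synthase had 14 of 17 members tested. On the loess scale 3 were lower and 1 higher, against 18.1% and 18.8% of all genes and 43.2% lower among genes with Cy5 below 1% of Cy3, with a median of -0.34. On the net scale 0 of 8 were lower and 1 higher, against 34.6% and 15.7%, and the median lay 0.36 above that of all genes.

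Atp5g2 was the 1 member higher in NOD on both scales. It is 1 of the 3 genes, with Atp5g1 and Atp5g3, that encode the same mature c subunit of the rotating ring with different import sequences. Its loess ratios ran from 0.57 to 1.21 (median 1.15) in NOD and -0.017 to 0.46 (median 0.30) in NOD.B10, and its net ratios from -0.45 to 0.044 (median -0.13) in NOD and -1.20 to -0.81 (median -0.88) in NOD.B10. All NOD arrays lay above all NOD.B10 arrays on both, against 9.52% of all genes on the loess and 9.94% on the net scale. The difference was 0.78 ± 0.13 (SE, adjusted p = 0.000656) on the loess scale, or 1.72-fold, and 0.78 ± 0.17 (SE, adjusted p = 0.00189) on the net scale. Within slides 2 and 3 the net difference was 0.61 and 0.62, and with slide in the fit its adjusted p was 0.0453.

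Not every reading of Atp5g2 was higher. A second probe, well above background on 5 arrays, differed by -0.14 on the loess scale, and with the scanner's processed ratio the first probe differed by -0.17 relative to all genes. Atp5g3 differed by -0.35 ± 0.16 (SE, adjusted p = 0.108) on the loess scale and 0.051 ± 0.20 (SE, adjusted p = 0.857) on the net scale. Within arrays Atp5g2 minus Atp5g3 ran from 1.12 to 1.85 (median 1.66) in NOD and 0.73 to 1.19 (median 0.86) in NOD.B10, a difference of 0.73 on the net scale, with slight overlap, and from -0.55 to 0.21 (median -0.11) in NOD and -1.48 to -0.93 (median -1.29) in NOD.B10, a difference of 1.13 on the loess scale, without overlap. Atp5g1 was well above background on 1 array and was not tested.

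The 3 members of ATP synthase that were lower on the loess scale are small membrane or stalk subunits and were not on the net scale. Atp5j2, subunit f, had loess ratios from -1.28 to -0.55 (median -0.81) in NOD and -0.55 to -0.072 (median -0.44) in NOD.B10 and differed by -0.49 ± 0.13 (SE, adjusted p = 0.0119). Atp5mpl, a small proteolipid, had loess ratios from -1.08 to -0.14 (median -0.72) in NOD and -0.36 to 0.044 (median -0.12) in NOD.B10 and differed by -0.52 ± 0.16 (SE, adjusted p = 0.0218). Atp5h, subunit d of the peripheral stalk, had loess ratios from -0.91 to -0.37 (median -0.55) in NOD and -0.44 to -0.16 (median -0.28) in NOD.B10 and differed by -0.29 ± 0.10 (SE, adjusted p = 0.0405), a call lost in 9 of the 12 fits without 1 array. Atp5mpl alone of these kept its call with slide as a fixed term.

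In the catalytic head and central stalk no difference passed on the loess or the net scale. Atp5a1, subunit alpha, differed by -0.34 on the loess and -0.25 on the net scale, and Atp5b, subunit beta, by -0.25 and -0.0039. Atp5c1, the central stalk subunit gamma, had net ratios from -1.60 to -1.12 (median -1.44) in NOD and -2.21 to -1.27 (median -1.69) in NOD.B10 and differed by 0.37 and, on the loess scale, 0.19. Atp5e, subunit epsilon, had net ratios from -1.46 to -0.27 (median -1.05) in NOD and -1.12 to 0.024 (median -0.37) in NOD.B10 and differed by -0.54 and -0.47. Other scalings gave calls in opposite directions: without background correction Atp5a1 (-0.58), Atp5b (-0.53) and Atp5e (-0.73) were lower, and with median centring they were called higher, at 0.82, 1.08 and 0.59 after the all-gene shift was taken off, as was Atp5c1 at 1.47.

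The remaining 5 members of ATP synthase did not pass on the scales where they were tested. Their loess differences were -0.54 for Atp5o, which joins the stalk to the head, -0.19 for the stalk subunit Atp5pb, -0.42 for Atp5l and -0.38 for Atp5md. Atp5j, the coupling factor F6, had net ratios from -1.31 to -0.64 (median -1.10) in NOD and -1.82 to -0.90 (median -1.39) in NOD.B10 and differed by 0.32 on the net and 0.23 on the loess scale.

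The 21 members on the array that were not tested include Ndufa10, Ndufb5, Ndufs8, Ndufv2 and Ndufv3 of complex I, the assembly factors Ndufaf1, Ndufaf3, Ndufaf5 and Ndufaf7, Sdha, Sdhb and Sdhc, Cox4i2, Cox6b1, Cox6b2, Cox7b2 and Cox8c of complex IV, and Atp5d, Atp5g1 and Atp5k of ATP synthase. In 19 of them Cy5 was well above background on 0 arrays. Cy3 was well above background on 11 or 12 arrays for 19, with a median net Cy3 from 27 (Ndufs8) to 3143.5 scanner units (Cox8c). Across the tested members the median net Cy3 was 11882.5 in NOD and 11342.7 in NOD.B10. Cox8c and Cox7b2 are testis isoforms, and Cox4i2 is a lung isoform. At this signal no level in islets can be given for them.

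Other mitochondrial genes were read from lists of known function, whose counts stand against 18.1% of all genes lower and 18.8% higher on the loess scale and 34.6% and 15.7% on the net scale. Of 14 tested genes of the citric acid cycle and pyruvate entry 10 were lower and 1 higher on the loess scale (median -0.61), and 0 of 4 were lower and 1 higher on the net scale. The gene higher on both was Cs, the citrate synthase, by 0.75 ± 0.18 (SE, adjusted p = 0.00657) on the loess scale. On the net scale it differed by 0.78 (adjusted p = 0.00818). Cy5 was below 1% of Cy3 for all 14, and 43.2% of all genes in that class were lower on the loess scale. The smallest p belonged to Pdhb, a subunit of pyruvate dehydrogenase, which no NOD.B10 array had well above background and for which no difference is given. Next were Pcx, the pyruvate carboxylase, and Sucla2, a subunit of succinyl-CoA ligase, with loess differences of -1.45 ± 0.30 (SE, adjusted p = 0.00226) and -0.60 ± 0.13 (SE, adjusted p = 0.00288). The net difference of Sucla2 was -0.12 (adjusted p = 0.623).

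Carriers, channels and shuttles had 5 of 8 lower and 1 higher on the loess scale, and 1 of 5 lower and 1 higher on the net scale. Slc25a5, an ADP/ATP carrier that trades the product of ATP synthase for ADP, was higher by 0.69 ± 0.11 (SE, adjusted p = 0.00055) on the loess scale and by 0.91 (adjusted p = 0.00333) on the net scale. Slc25a4, the carrier isoform of heart and muscle, differed by -0.82 ± 0.14 (SE, adjusted p = 0.000719) on the loess scale and by -0.32 (adjusted p = 0.15) on the net scale, where it did not pass. Vdac1, a channel of the outer membrane, differed by -0.91 ± 0.26 (SE, adjusted p = 0.0149) and -0.43 (adjusted p = 0.152).

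Assembly factors outside the symbol rule had 7 of 16 lower and 1 higher on the loess scale. Cox17, a copper chaperone of complex IV, differed by -0.47 ± 0.11 (SE, adjusted p = 0.00408), with 1 NOD.B10 array well above background. Cox16 differed by 0.54 ± 0.14 (SE, adjusted p = 0.0111) and on the net scale by 0.39 (adjusted p = 0.159). Coa3 differed by -0.57 ± 0.17 (SE, adjusted p = 0.0215) and on the net scale by -1.05 (adjusted p = 0.00162), a call on both.

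In the mitochondrial ribosome 9 of 42 genes were lower and 3 higher on the loess scale (median -0.21), against 18.1% and 18.8% of all genes. On the net scale 0 of 7 were called. Mrpl14, Mrps28 and Mrpl51 had the smallest p but were well above background on 1, 2 and 0 NOD.B10 arrays. The loess difference was -0.83 ± 0.13 (SE, adjusted p = 0.000469) for Mrpl14 and -0.59 ± 0.12 (SE, adjusted p = 0.00238) for Mrps28. Protein import had 4 of 16 lower and 0 higher on the loess scale, against the same shares of all genes, and 0 of 4 were called on the net scale. Its smallest p belonged to Timm10, Grpel1 and Timm17a, of which only Timm17a was well above background in NOD.B10, with a loess difference of -0.39 ± 0.13 (SE, adjusted p = 0.0384). Of the regulators of mitochondrial gene expression 3 of 14 were tested and 0 called. These were Gabpa, the DNA-binding subunit of GABP, Tfb2m and Polrmt, which cleared background on 0 NOD.B10 arrays. Subunits encoded by mitochondrial DNA were not analysed here.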

How the data were processed

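The deposited values are unnormalised scanner intensity readings for each spot and channel, namely the median of the spot and of its local background, which per the file headers came from Feature Extraction 10.5.1.1. The same deposited files hold a processed log10 ratio of Cy5 to Cy3, used as an alternative, and quality marks set by the authors' scanner software; other columns were not used. Each of the 12 arrays has 45018 spots and 41174 non-control probes, of which 24375 took one of 17016 symbols through a RefSeq annotation of GRCm38.p6. Background correction was normexp with an offset of 50, followed by loess within arrays, in limma 3.58.1 (R 4.3.3). The design had planned mean signals; the files hold medians, which were used. Outlier spots (160 to 250 per array) were left out where another spot of the probe remained. Probes with Cy5 well above background on at least 4 of 12 arrays were kept (5347), and for each symbol the one with the highest mean Cy5 was taken (3920 genes). The net ratio used the 1078 probes, 835 genes, with both channels well above background on all arrays, centred on their median per array. Strains, grouped by the labels, were compared with limma (lmFit and eBayes), Benjamini-Hochberg adjustment and a threshold of 0.05. A fold is 2 to the power of the loess difference.

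Every tested member is named; 1 untested member is not reported here. Values by array are given for up to 4 members per complex with the smallest p on the loess scale and up to 4 on the net scale. Of other mitochondrial lists up to 3 with the smallest loess p are named, and Cs in addition. Members and lists were chosen with earlier results of these data known. Both fits were tested on simulated data. Alternatives covered scaling, background, dim-probe filters, probe choice, slide, array brightness, replicate number and leaving out each array. Precision rests on the number of arrays and on how far a signal stands above background. Dyes were not swapped.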

Additional observations from a re-analysis of the deposited data

Results flagged for a closer look

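In 8 of 138 groups of 6 loess ratios (69 members in each strain), 1 array lay far from the other arrays of its strain by Dixon's criterion, which chance meets in about 1 of 20 groups. In NOD, replicate 5 had the lowest Atp5g2 ratio, 0.57, with the others between 0.99 and 1.21. That array also had the highest Ndufb2 ratio, 2.50, with the others between -0.78 and 0.37. Replicate 1 of NOD had the lowest Cox4i1 ratio, -1.84, below the range of -1.23 to -0.86. In NOD.B10, replicate 1 had the highest Cycs ratio, 0.53, above -0.46 to -0.18. The same array had the lowest Ndufa2 ratio, -0.36, below 0.13 to 0.38. Replicate 5 of NOD.B10 stood apart for Ndufa5 at 0.23 (others -0.29 to -0.10) and for Uqcrb at -0.39 (others -0.25 to -0.19). Replicate 4 of NOD.B10 had the highest Ndufa7 ratio, 1.13, above 0.10 to 0.47.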

How the results depend on the processing

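Scaling set the direction of the family. Median centring gave 1980 genes higher and 0 lower, 59 members higher and 0 lower, with complex medians relative to all genes of 0.34 for complex I, 0.59 for complex III, 0.61 for complex IV, 0.77 for ATP synthase, 0.46 for all members. The scanner's processed ratio called 313 genes lower, 12 members lower and 0 higher, with medians of -0.79 for complex I, -0.71 for complex III, -0.76 for complex IV, -0.82 for ATP synthase, -0.76 for all members (all-gene median 0.48). Cy5 alone called 265 genes lower and 4 members in each direction, with medians of -0.074 for complex I, -0.13 for complex III, -0.10 for complex IV, 0.011 for ATP synthase, -0.071 for all members. Without background correction the medians of complex III, ATP synthase and all members were -0.58, -0.51 and -0.58. The net ratio left uncentred called 641 genes and 41 members higher and 0 of either lower.

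Filters changed the number of genes and members tested, so counts under them do not share a base. Cy5 well above background on 8 of 12 arrays gave 311 genes higher and 391 lower. Requiring 4 of 6 arrays in each strain gave 250 and 315 and an ATP synthase median of -0.23. No filter gave 1392 genes lower and a complex I median of -0.34. A net signal of at least 100 in both channels left 27 genes higher and 25 lower and no member tested, hence 0 called.

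Slide as a fixed term gave 361 genes higher, 354 lower and 15 members lower on the loess scale, and 167 genes and 2 members lower on the net scale. Without slide 4, 3 members were lower on the net scale. Slide 2 alone (2 arrays of each strain) called 38 genes higher and 46 lower, 1 member lower and 0 higher on the loess scale, with medians of -0.29 for complex I and -0.030 for ATP synthase, and 0 genes on the net scale. Slide 3 alone called 1 gene in each direction and 0 members on the loess scale, with medians of -0.32 for complex I and -0.23 for complex IV; on the net scale it called 3 genes higher, 2 lower and 0 members, with 0.16 for complex I. The brightness covariate called 3 genes higher and 0 lower on the loess scale, 2 and 0 on the net scale, and 0 members, with medians of -0.023 for complex I, -0.027 for complex III, 0.040 for complex IV, -0.27 for ATP synthase, -0.0048 for all members, and on the net scale of -0.12 for complex I, -0.17 for complex III, 0.0044 for complex IV, -0.31 for ATP synthase, -0.12 for all members. Brightness followed strain without overlap, so this fit has little left to estimate either with. The cause of these changes was not tested.

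Leaving out 1 array gave 29 to 38 members lower and 1 to 2 higher on the loess scale (2 without NOD replicate 5), 4 to 8 lower on the net scale, and complex I medians of -0.57 to -0.39, the latter without NOD.B10 replicate 4. Loess calls were lost (arrays by replicate number) for Atp5h without NOD 1, 2, 4 or 6 or NOD.B10 1, 2, 3, 5 or 6, for Cox6a1 without NOD 1, 2, 4 or 6 or NOD.B10 1, 3, 4 or 5, for Cox7c without NOD 1, 2 or 4 or NOD.B10 2, 3, 4 or 5, for Ndufs6 without NOD 1 or 2 or NOD.B10 2 or 6, for Sdhd without NOD 2 or 6 or NOD.B10 2, 4 or 6, for Uqcrfs1 without NOD 1, 2 or 6 or NOD.B10 3, 4, 5 or 6. Net calls were lost for Ndufa7 without NOD 2 or 6 or NOD.B10 3, 4 or 6, for Ndufb3 without NOD 1, 2, 3, 4 or 6 or NOD.B10 1, 2, 3 or 4, for Uqcr11 without NOD 1 or NOD.B10 2. With replicate number as a block (replicate block) 30 members were lower on the loess scale and 4 on the net scale. Same-numbered arrays correlated between -0.15 and 0.21 in their loess deviations and between 0.033 and 0.26 in their net deviations, so the numbers were not taken to pair the mice.

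In the list below, values of Cox7a1, Cyc1, Ndufa3 and Ndufaf4 rest on NOD.B10 signals not well above background. Single members that changed sign, as log2 relative to all genes, were as follows. Median centring gave Atp5a1 0.82, Atp5b 1.08, Atp5e 0.59, Atp5g3 1.29, Atp5h 0.21, Atp5j2 0.087, Atp5l 0.054, Atp5md 1.03, Atp5mpl 0.70, Atp5o 0.47, Atp5pb 0.19, Cox4i1 0.083, Cox5b 0.48, Cox6a1 1.03, Cox6c 1.01, Cox7a2 0.90, Cox7c 0.75, Cox8a 0.60, Cycs 0.24, Ndufa1 0.92, Ndufa12 0.51, Ndufa13 0.64, Ndufa2 0.57, Ndufa3 0.034, Ndufa4 1.00, Ndufa5 0.53, Ndufa7 0.40, Ndufa8 0.39, Ndufa9 0.19, Ndufab1 0.069, Ndufb10 0.49, Ndufb11 0.81, Ndufb3 0.26, Ndufb4 0.36, Ndufb6 0.23, Ndufb7 0.20, Ndufb8 0.055, Ndufb9 0.36, Ndufc1 0.46, Ndufs1 0.19, Ndufs3 0.30, Ndufs4 0.28, Ndufs5 0.20, Ndufs7 0.074, Uqcr10 0.80, Uqcr11 0.30, Uqcrc1 0.57, Uqcrc2 0.85, Uqcrfs1 0.58, Uqcrq 0.76. Cy5 alone gave Atp5h 0.17, Atp5j2 0.14, Atp5pb 0.35, Cox4i1 0.093, Cox7a1 0.079, Cox7c 0.033, Cyc1 0.080, Ndufa9 0.074, Ndufab1 0.084, Ndufaf4 0.21, Ndufs6 0.12, Ndufs7 0.020, Ndufv1 0.046, Sdhd 0.076, Uqcrc1 0.092, Uqcrfs1 0.074. The brightness covariate gave Atp5h 0.10, Atp5j2 0.049, Cox4i1 0.31, Cox5b 0.018, Cox6a2 0.17, Cox7a1 0.29, Cox8b 0.0019, Cyc1 0.053, Ndufa8 0.046, Ndufa9 0.023, Ndufab1 0.33, Ndufb8 0.46, Ndufb9 0.40, Ndufs6 0.15, Ndufs7 0.025, Sdhd 0.053, Uqcrfs1 0.19. The scanner ratio gave Atp5g2 -0.17, Cox4i1 0.26. Slide 2 alone gave Uqcrfs1 0.064 on the loess scale, and slide 3 alone Ndufb3 0.021 on the net scale. The within-array difference Cox7a1 minus Cox7a2 was 0.47 on slide 2, a check chosen after seeing the data.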
